A study of Mus musculus with 6 samples.

Results

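The myeloid C-type lectin receptors described here are 9 genes: Clec2d, Clec2i, Clec4a2, Clec4d, Clec4e, Clec4n, Clec5a, Clec7a and Clec12a. Their members were probe sets whose platform annotation gives exactly 1 gene symbol that is one of these names, which found 12 probe sets for 8 of the 9 genes, of 34945 such probe sets and 18193 named genes in all. The expression of Clec12a was not analysed here. They were chosen by their difference in signal between the tissues, known from earlier work on these arrays, so that difference is described gene by gene without a test, and nothing is read from the counts of calls given for them.

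Megakaryocyte progenitors of C57BL/6 mice, all of the GATA1s genotype, were sorted by c-kit, CD150 and CD41 after removal of lineage-marked and Sca-1 cells, and their RNA was hybridised to mouse expression arrays. GATA1s is the shortened form of the transcription factor GATA1 that lacks its amino terminus. The cells came from the bone marrow of adults (12 to 18 weeks old; 3 arrays) or from the fetal liver of E13.5 embryos (3 arrays). Replicates are labelled as biological, without saying how many animals each holds. No array of full-length GATA1 was analysed here, and the genotype is therefore shared by both tissues and never compared. In sorted bulk samples, fewer cells of a type and less RNA per cell cannot be told apart.

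C-type lectin receptors of myeloid cells recognise sugars, glycolipids and products of dead cells. The activating receptors signal through the kinase Syk, either by a tyrosine motif in their own tail or by pairing with the adaptors encoded by Fcer1g and Tyrobp, and Syk then acts through Card9, Bcl10 and Malt1 to raise cytokine genes. Inhibitory receptors carry a tail motif that recruits phosphatases such as those encoded by Ptpn6 and Ptpn11. Several genes of the family encode ligands or receptors of natural killer cells, and many lie in clusters on 1 chromosome.

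Clec7a encodes Dectin-1, which binds fungal beta-glucan and signals through its own tail motif. Its MAS5 signal, the linear intensity the authors deposited for a probe set, was 641, 645 and 537 on bone marrow replicates 1 to 3 and 24.0, 6.96 and 27.2 on fetal liver replicates 1 to 3. The lowest bone marrow array was 19.7 times the highest fetal liver array, and only fetal liver replicate 2 lay under 10.6. That signal is the control level, the 95th percentile of 27 bacterial control probe sets. The log2 difference was -5.19 ± 0.63 (SE from the 3 arrays of each tissue), with a negative sign wherever fetal liver is lower. For genes outside the members, ± beside a log2 fold change is instead the SE of the limma fit, which borrows spread from other genes.

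Clec5a, a receptor that pairs with the Tyrobp adaptor, had signals of 174, 233 and 299 in bone marrow and 9.37, 16.5 and 16.2 in fetal liver. The tissues did not overlap, and fetal liver replicate 1 was under the control level. The log2 difference was -4.08 ± 0.35.

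Clec4e encodes Mincle, a receptor for mycobacterial glycolipid and for material from dead cells, which signals through the Fcer1g adaptor. Its first probe set gave 418, 514 and 612 in bone marrow and 143, 87.9 and 69.8 in fetal liver. All 3 fetal liver arrays stayed well above the control level on this probe set, and the tissues did not overlap. The log2 difference was -2.41 ± 0.34. The second probe set was dimmer, at 140, 80.1 and 124 against 17.3, 13.2 and 9.74, with a log2 difference of -3.10 ± 0.34.

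Clec4d encodes the receptor MCL, which is known to form a complex with Mincle, and it differed least between the tissues. Its signals were 3080, 3934 and 3828 in bone marrow and 3780, 3030 and 2550 in fetal liver. The tissues overlapped, since fetal liver replicate 1 lay above bone marrow replicate 1. The log2 difference was -0.22 ± 0.20, so that fetal liver held 85.7% of the bone marrow signal. This is the only probe set of Clec4d, and its name carries the suffix for probes that can detect more than 1 related transcript. The sign of so small a difference was not settled, as it was 0.12 after centring each array on its median. The lowest value over the alternatives was -0.37. Clec4d was called lower only without fetal liver replicate 1, the array that lay above bone marrow replicate 1.

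Clec4n encodes Dectin-2, a mannan receptor that uses the Fcer1g adaptor. Its first probe set gave 52.7, 35.8 and 45.3 in bone marrow and 6.52, 1.58 and 2.13 in fetal liver, all 3 under the control level. Clec4n was therefore at least 4.14-fold lower in fetal liver, taking each fetal liver array at the control level. Like that of Clec4d, the name of this probe set carries the suffix for probes that can detect more than 1 related transcript. The second probe set, at 27.2, 9.83 and 39.3 against 5.74, 0.48 and 1.57, allowed a bound of at least 2.06-fold, and there bone marrow replicate 2 was also under the control level.

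Clec4a2 encodes DCIR1, an inhibitory receptor of myeloid and dendritic cells. Its first probe set gave 257, 581 and 557 in bone marrow and 0.73, 0.81 and 3.55 in fetal liver, at least a 41.0-fold difference. Its second gave 160, 202 and 211 against 2.49, 13.1 and 6.00, at least 16.7-fold. Both probe sets separated the tissues, and fetal liver replicate 2 of the second was the single fetal liver value above the control level. A further probe set annotated to both Clec4b1 and Clec4a2 was not used.

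Clec2d and Clec2i encode Clr-b and Clr-g, surface proteins bound by receptors of the Klrb1 family on natural killer cells, so the label myeloid does not describe their known partners. Clec2d had signals of 1082, 2553 and 1686 in bone marrow and 878, 345 and 310 in fetal liver. The tissues were separated by a narrow margin, the lowest bone marrow array being 1.23 times the highest fetal liver array, fetal liver replicate 1. The log2 difference was -1.88 ± 0.60. Clec2i gave 60.2, 34.8 and 52.8 against 10.4, 1.91 and 11.1 on its first probe set, at least 4.46-fold lower in fetal liver. Its second gave 35.1, 45.7 and 44.3 against 1.68, 0.25 and 3.28, at least 3.90-fold lower. The killer cell receptor gene for Clec2d, Klrb1b, had mean bone marrow signals of 0.42 to 9.44 over its 5 probe sets, all under the control level. The brightest of the 5 in fetal liver gave 24.5, 14.9 and 3.07, on both sides of that level. For the Clec2i partner Klrb1f, 2 probe sets gave bone marrow mean signals of 30.5 ± 9.93 and 73.7 ± 45.4 and fetal liver means of 7.85 ± 5.69 and 4.13 ± 2.56 (SD, n = 3 each). Neither Klrb1 gene passed the filter on signal, so neither was tested.

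**Figure D1:**
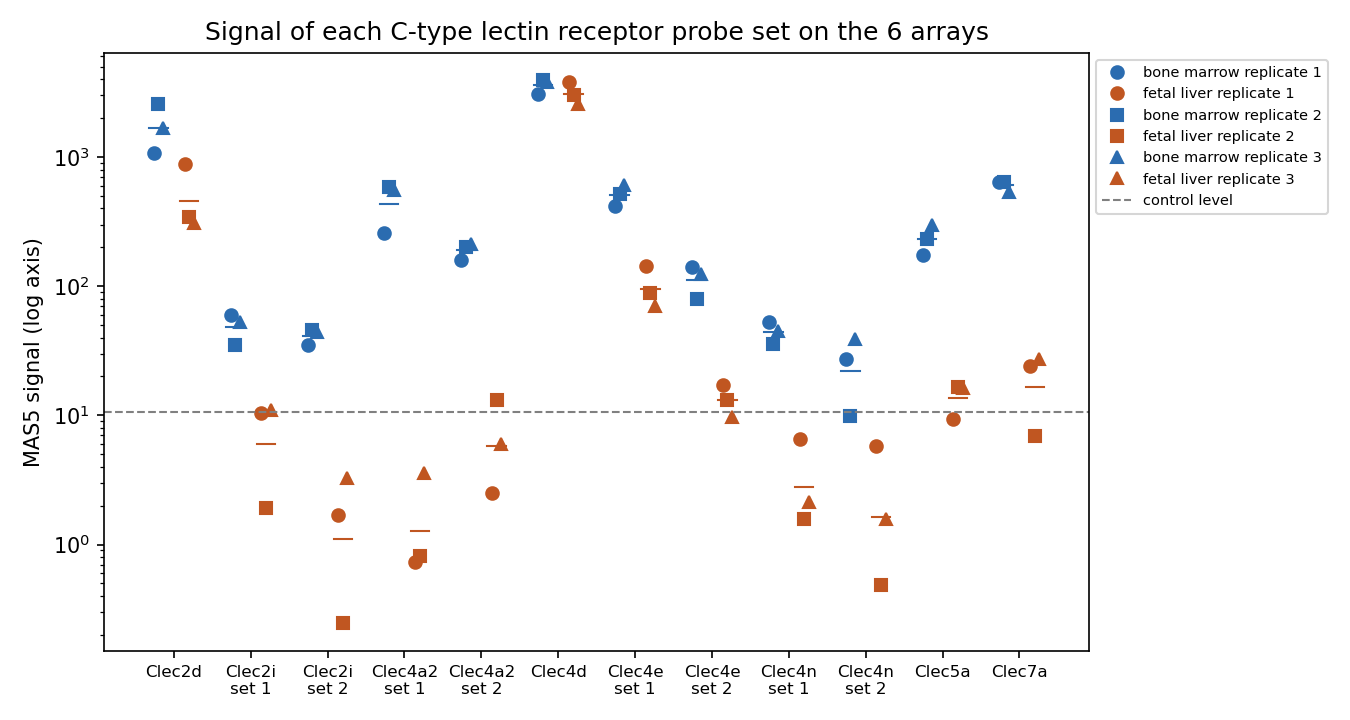
MAS5 signal on a log axis for the 12 probe sets of the 8 measured receptor genes, with 1 symbol per array, blue for bone marrow and orange for fetal liver. Short lines mark geometric means and the dashed line the control level of 10.6. The tissues are apart for every probe set except that of Clec4d, and 6 probe sets have a fetal liver geometric mean below the dashed line.

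In all, 11 of 12 probe sets lay lower in fetal liver on every array, against 17.7% of all 34945 probe sets with 1 symbol. Of the 9 genes, 6 passed the filter on geometric mean signal (22.9) that precedes the test across genes. Clec2i and Clec4n did not pass. Of the 6, limma called 5 lower and none higher in fetal liver at an adjusted p under 0.05, where 36.1% of all genes tested were called and 18.3% were called lower. Arrays of the tissues did not overlap for the same 5, against 50.5% of all genes tested. Because the genes were chosen for this difference, nothing is read from these counts. Clec4d was the gene not called. The count was 6 of 6 without fetal liver replicate 1 and 6 of 7, again without Clec4d, when replicate 2 was left out. The median log2 difference over the 8 measured genes, each on its brightest probe set, was -3.48, or -2.28 with signals below the control level raised to it.

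The arrays of a tissue also differed among themselves. On fetal liver replicate 1 the median receptor had a log2 deviation of 0.83 from the mean of the other fetal liver arrays. Of the 8 genes, 6 lay above that mean there, and 4 had their highest fetal liver signal on this array. Among the 6 were Clec2d (1.42), Clec4e (0.87) and Clec4d (0.44). These are the 3 genes whose brightest probe set stayed above the control level on every array. The exceptions to the 6, Clec4a2 and Clec5a, were under the control level on fetal liver replicate 1. Clec2i (10.4) and Clec4n (6.52), counted among the 6, were under it there too. Clec7a was under it on replicate 2, where it was lowest. The median deviation of the megakaryocyte markers on fetal liver replicate 1 was -0.95, that of the neutrophil markers 0.07 and that of the monocyte markers 0.22. The other marker lists ran from 0.03 (macrophage) to 0.50 (natural killer) there. The part of any of these cells in the receptor values was not tested. In bone marrow, replicate 1 held the lowest signal of 5 of the 8 genes, with a median deviation of -0.35 and the furthest at Clec2d (-0.94). Many fetal liver values lie near the control level, where MAS5 signals spread widely.

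**Figure D2:**
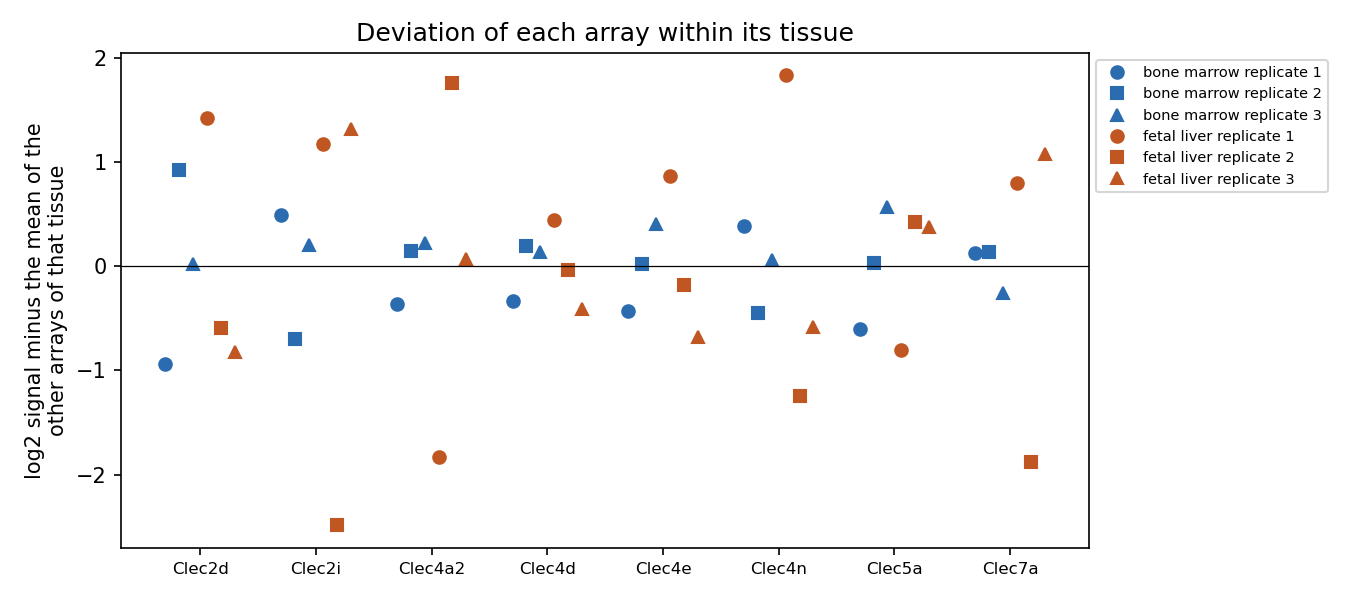
Log2 signal of each receptor gene on each array minus the mean of the other arrays of the same tissue, on the brightest probe set of the gene. Fetal liver symbols (orange) spread wider than bone marrow symbols (blue), and on fetal liver replicate 1 the symbols of 6 of the 8 genes lie above 0, such as Clec2d at 1.42.

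All 9 genes lie on mouse chromosome 6 in the RefSeq gene table of assembly GRCm38.p6, in 3 places. Clec5a stands alone, 631 protein-coding genes before Clec4a2. Clec4a2, Clec4n, Clec4d and Clec4e follow each other, with 1 other protein-coding gene between the first pair and none between the others, so that Clec4d, which hardly differed, sits between Clec4n and Clec4e. Clec2i, Clec2d, Clec12a and Clec7a form the third place, 93 genes further on.

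The neighbouring genes were taken as the 5 nearest tested protein-coding genes on each side of each member, which gave 33 genes at 1 to 35 gene positions from a member. Of these, 10 were lower and 6 higher in fetal liver (30.3% and 18.2%, against 18.3% and 17.8% of all genes tested), with a median log2 fold change of -0.13 against 0.04 for all genes. Without bone marrow replicate 3 the count was 6 lower and 2 higher, without fetal liver replicate 2 it was 8 lower and 2 higher, and centring arrays on their median gave 8 lower and 14 higher and turned the sign of the list's median. The smallest adjusted p-values belonged to Klra17, Foxj2, Klrd1 and Apobec1. Klra17, a killer cell lectin-like gene whose probe set may detect relatives in its family, was at least 43.0-fold lower (adjusted p = 1.39e-05). Klrd1, which encodes the killer cell receptor CD94, was at least 8.20-fold lower (adjusted p = 4.34e-04). Foxj2, a forkhead transcription factor (log2 fold change -1.39 ± 0.16, adjusted p = 1.75e-04), and Apobec1, an RNA-editing cytidine deaminase (-1.34 ± 0.18, adjusted p = 5.20e-04), lie before the Clec4 genes. Split by name after the values were seen, 5 of the 7 neighbours with a C-type lectin domain fell and 1 rose, and 5 of the other 26 fell and 5 rose. Of these 7, all but Klra17 (Cd69, Clec1b, Clec1a, Olr1, Klre1 and Klrd1) are counted again below among the other receptors with a C-type lectin domain.

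**Figure D3:**
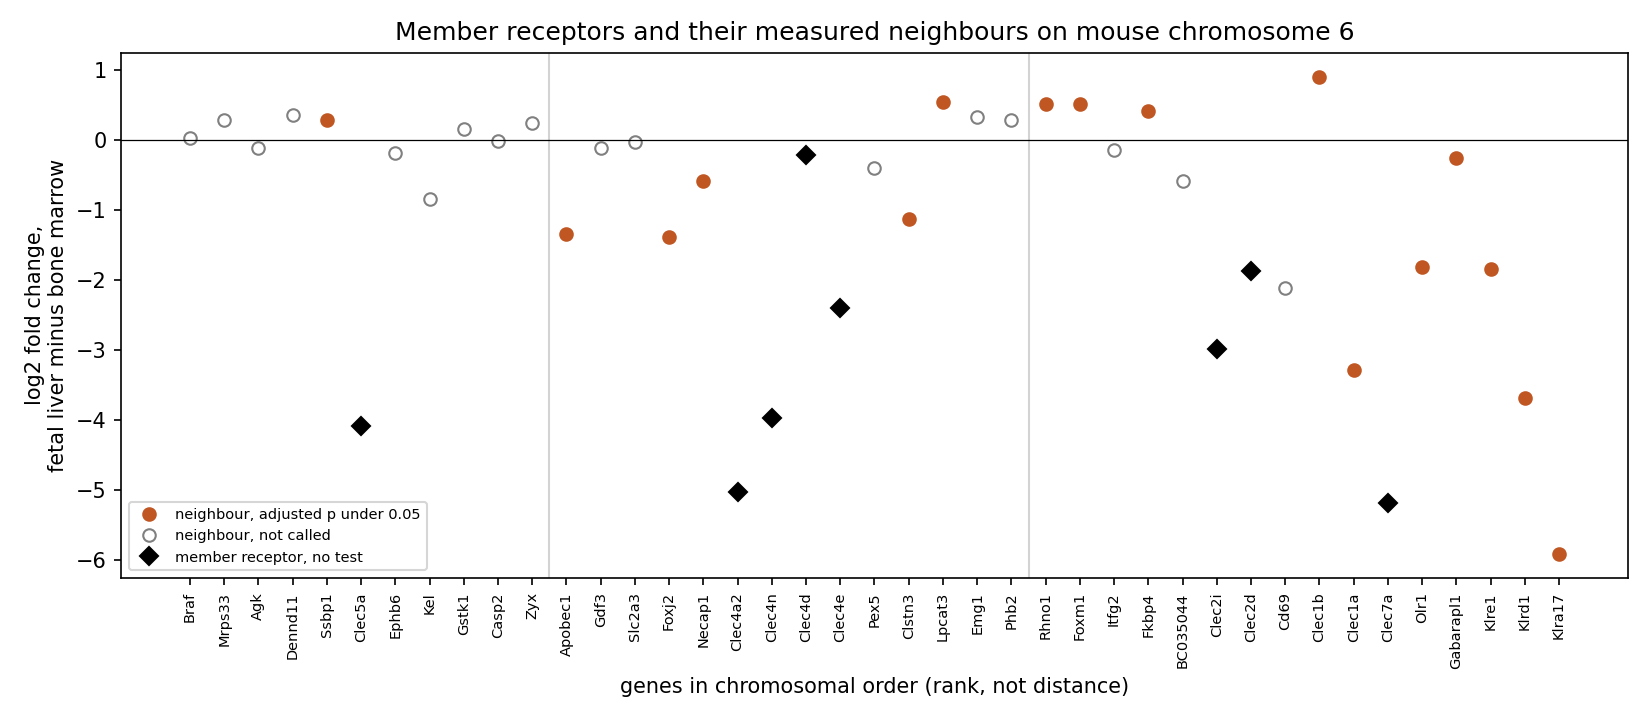
Log2 fold change (negative where fetal liver is lower) of the member receptors (black diamonds, no test) and their tested neighbours (circles, filled where called) in their order on chromosome 6; vertical lines part the 3 places and distances are not to scale. Clec5a at -4.08 stands among neighbours of which only Ssbp1 was called, and Clec4d at -0.22 stands nearest to 0 of the member receptors; points of genes whose fetal liver geometric mean is below the control level, Clec4n among them, are not bounded there and their depth has no order.

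Promoter letters are shown for 4 members, to set Clec7a, Clec5a and Clec4e, whose arrays were apart, beside Clec4d, whose arrays overlapped. All 4 hold the letters marked, whereas Clec4a2, Clec2d and Clec2i, whose arrays were also apart, do not hold them in this window and are not shown. Each is the 250 bases before the start site in RefSeq (GRCm38.p6), read 5′ to 3′ on the strand of the gene. Capitals mark GAGGAA or its reverse complement, the core letters bound by the myeloid transcription factor PU.1 and other ETS factors. The windows are chr6:129472780-129473029 (minus strand) for Clec7a, chr6:40585806-40586055 (minus) for Clec5a, chr6:123289872-123290121 (minus) for Clec4e and chr6:123261857-123262106 (plus) for Clec4d.
Clec7a: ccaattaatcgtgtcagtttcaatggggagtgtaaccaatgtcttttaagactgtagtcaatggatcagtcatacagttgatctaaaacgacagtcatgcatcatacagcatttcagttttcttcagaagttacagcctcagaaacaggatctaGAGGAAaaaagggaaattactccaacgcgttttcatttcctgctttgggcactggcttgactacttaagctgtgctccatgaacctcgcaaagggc
Clec5a: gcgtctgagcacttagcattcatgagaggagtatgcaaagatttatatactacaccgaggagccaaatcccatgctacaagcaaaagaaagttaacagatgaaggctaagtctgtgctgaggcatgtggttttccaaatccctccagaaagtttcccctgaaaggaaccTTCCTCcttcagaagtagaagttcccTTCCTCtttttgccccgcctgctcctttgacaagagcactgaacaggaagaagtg
Clec4e: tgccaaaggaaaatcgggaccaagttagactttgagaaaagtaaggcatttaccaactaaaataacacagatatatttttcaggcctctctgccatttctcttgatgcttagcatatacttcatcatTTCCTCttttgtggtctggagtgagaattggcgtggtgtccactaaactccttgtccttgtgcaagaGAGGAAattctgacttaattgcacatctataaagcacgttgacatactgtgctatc
Clec4d: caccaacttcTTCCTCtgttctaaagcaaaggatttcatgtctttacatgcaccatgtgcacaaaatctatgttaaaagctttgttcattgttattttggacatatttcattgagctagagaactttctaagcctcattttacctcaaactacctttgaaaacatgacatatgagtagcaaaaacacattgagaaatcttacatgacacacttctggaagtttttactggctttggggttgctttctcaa

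Clec7a held the core letters once, starting 96 bases before the start site, Clec5a at 81 and 55, Clec4e at 123 and 56, and Clec4d at 240 alone. Both strands were searched. Of the 8 members with a promoter in the table, 5 held GAGGAA (Clec12a was the fifth), against 23.1% of 27025 genes with a window of the same length. The AP-1 letters TGANTCA were in 1 of the 8 (Clec12a) against 6.87% of genes. An interferon-response repeat was in 1 (Clec2d) against 3.04%. A match is a description of letters and not a measured binding site.

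Spi1, which encodes PU.1, fell from a signal of 353 ± 23.7 in bone marrow to 208 ± 21.5 (SD, n = 3 each; log2 fold change -0.76 ± 0.16, adjusted p = 0.00496), a call that centring on the array median removed (adjusted p = 0.0742). Of the 8 myeloid transcription factors tested, 7 fell and none rose (87.5% fell, against 18.3% of all genes tested), with a median of -2.31. Klf4 (-4.06 ± 0.18), Irf8 (-3.77 ± 0.19), Cebpa, a factor required for granulocyte development (-2.16 ± 0.15), and Gfi1 (-3.61 ± 0.45) had the smallest adjusted p-values, from 1.15e-06 to 3.23e-04. Nr4a1, with a log2 fold change of -2.46, was not called (adjusted p = 0.0766).

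The adaptors and signalling proteins downstream of the receptors mostly did not pass the test. Of 20 genes in this list 16 were tested, of which 2 fell and 3 rose (12.5% and 18.8%, against 18.3% and 17.8% of all genes), with a median log2 fold change of 0.10. Card9 was among those not analysed here. Fcer1g, the adaptor of Clec4e and Clec4n, had signals of 4139, 3899 and 3999 in bone marrow and 3687, 5561 and 5208 in fetal liver. Those arrays overlapped, and the log2 fold change of 0.24 ± 0.14 was not called (adjusted p = 0.205). It was called higher with arrays centred on their median (0.58, adjusted p = 0.0175) and without fetal liver replicate 1 (0.42, adjusted p = 0.00287). Tyrobp, the adaptor of Clec5a, had signals of 1939, 2233 and 2313 in bone marrow and 501, 532 and 723 in fetal liver. All 3 fetal liver arrays were lower, and Tyrobp fell by 1.90 ± 0.15 on the log2 scale (adjusted p = 2.02e-05).

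Syk, the kinase the activating receptors share, had mean signals of 2598 ± 205 and 2872 ± 535 in that order of tissues (SD, n = 3 each), 0.13 ± 0.14 apart on the log2 scale (adjusted p = 0.497). It too was called higher under median centring (adjusted p = 0.0443) and without fetal liver replicate 1 (adjusted p = 0.0489). Fgr, a Src-family kinase of myeloid cells, was the other gene of this list that fell (-2.75 ± 0.41, adjusted p = 9.16e-04). The phosphatase genes Ptpn6 and Ptpn11, known to act on inhibitory receptors such as the product of Clec4a2, rose by 0.45 ± 0.10 (adjusted p = 0.00870) and 0.55 ± 0.12 (adjusted p = 0.00605). A second Ptpn6 probe set went the other way (-0.31), and with the mean of its probe sets Ptpn6 was not called (adjusted p = 0.773). The list's counts were not stable: 5 fell and 1 rose when the probe sets of a gene were averaged, which also turned the sign of the median, 3 fell and 7 rose without fetal liver replicate 1, 2 fell and 8 rose with arrays centred on their median, and 1 fell with the stricter filter.

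Cytokine and early-response genes known to be induced by these receptors were lower in fetal liver in 10 of 12 tested cases of a list of 19, and none was higher. That is 83.3% lower, against 18.3% of all genes tested. The median log2 fold change was -3.61. With no filter the median was -2.31, and 10 of the 19 genes were lower. Il1rn, Il6, Ccl4 and Nlrp3 had a fetal liver geometric mean below the control level. Il1b, an inflammatory cytokine gene, changed by -3.63 ± 0.17 on the log2 scale (adjusted p = 1.36e-06). Ccl4, a chemokine, was at least 37.6-fold lower, Nlrp3, an inflammasome sensor, at least 13.2-fold, and Il1rn, which encodes the interleukin-1 receptor antagonist, at least 19.0-fold (adjusted p = 1.79e-04, 2.51e-04 and 5.30e-04). Tnf and Cxcl2, with log2 fold changes of -0.89 and -1.87, were not called. On fetal liver replicate 1 the median deviation of this list from the other fetal liver arrays was 2.30 log2 units, and on replicate 3 it was -1.91. The count was 6 of 12 lower without bone marrow replicate 1 or 3 and 11 lower without fetal liver replicate 1.

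The other receptors with a C-type lectin domain were lower more often than higher in fetal liver. Of 58 genes in this list 15 passed the filter, of which 11 fell and 2 rose. These are 73.3% and 13.3%, against 18.3% and 17.8% of all genes tested. The median log2 fold change was -1.94 against 0.04 for all genes. With no filter 16 fell and 3 rose and the median was -0.79. Cd72, an inhibitory receptor of B cells, went from a mean signal of 709 ± 190 in bone marrow down to 57.7 ± 6.84 (-3.58 ± 0.23 on the log2 scale, adjusted p = 7.20e-06). Cd93, a surface protein of early progenitors and endothelium, fell from 3779 ± 126 to 1445 ± 346 (-1.41 ± 0.15, adjusted p = 1.16e-04). Ly75, which encodes the dendritic cell receptor DEC-205, changed by -3.79 ± 0.50 on the log2 scale (adjusted p = 4.33e-04), and Selp, the adhesion receptor P-selectin of platelets, by -3.25 ± 0.32 (adjusted p = 8.31e-05).

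Clec1b and Asgr2 were the exceptions that rose. Clec1b, which encodes the podoplanin receptor CLEC-2 of megakaryocytes and platelets, had signals of 3402, 2809 and 2220 in bone marrow and 3287, 7109 and 5871 in fetal liver. Fetal liver replicate 1 lay within the bone marrow range. The log2 fold change was 0.90 ± 0.26 (adjusted p = 0.0244), and the call was lost without bone marrow replicate 2 (adjusted p = 0.0613) or 3 (0.0824) and without fetal liver replicate 2 (0.0832) or 3 (0.0788). Asgr2, a subunit of the hepatocyte asialoglycoprotein receptor, was chosen for mention after its value was seen and was at least 5.79-fold higher in fetal liver (adjusted p = 0.00274). The number of genes that rose was 1 without bone marrow replicate 2 or 3 or fetal liver replicate 1, and 0 without fetal liver replicate 2 or 3.

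**Figure D4:**
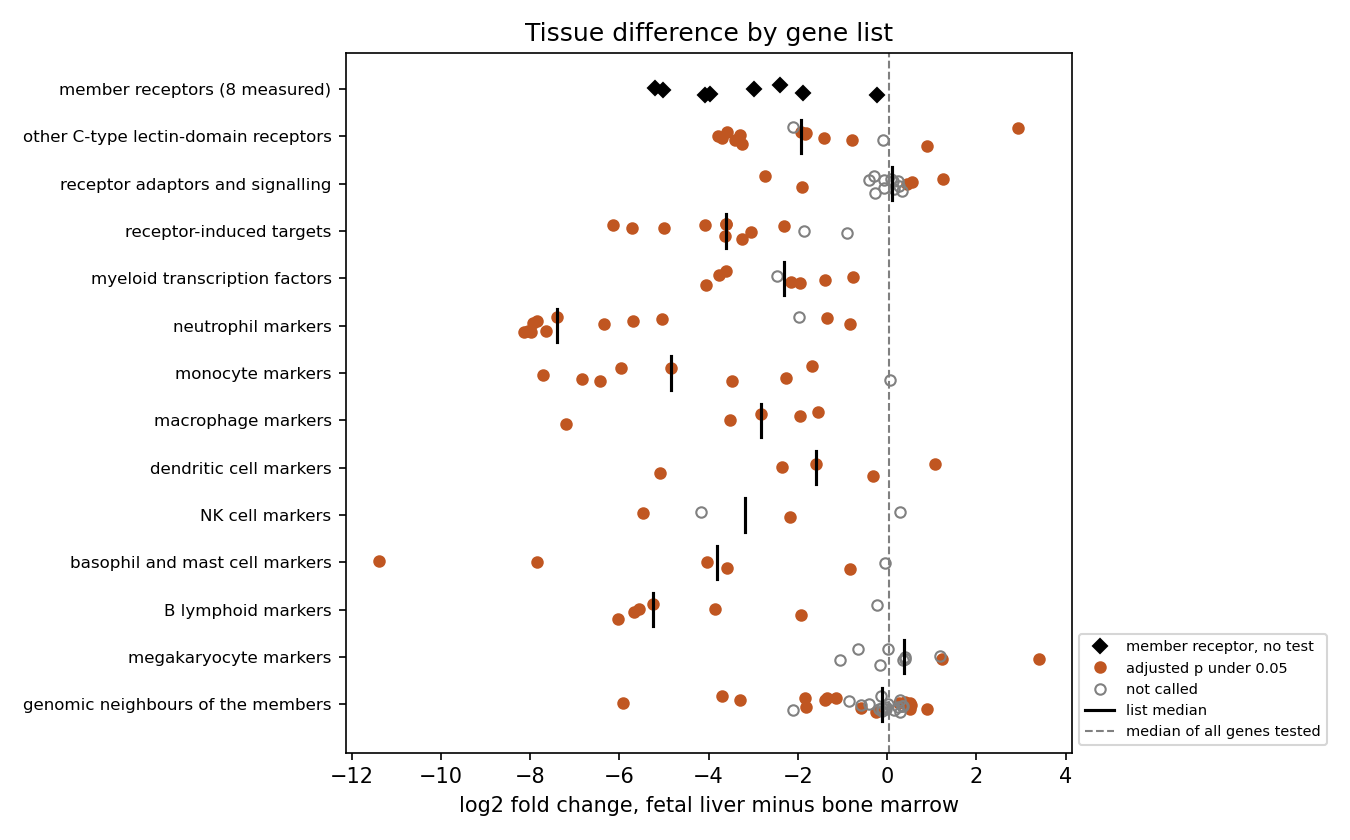
Log2 fold change (negative where fetal liver is lower) of each tested gene in the lists named in the text (filled where called), with a bar at the list median and a dashed line at the median of all genes tested (0.04). The member receptors (black diamonds, no test) run from -5.19 to -0.22, the adaptors and signalling genes gather around 0.10, and the neutrophil markers have a median of -7.40.

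Most tested markers of other blood cells were likewise lower in fetal liver. The gate excluded lineage-positive cells. Of all genes tested, 18.3% were called lower and 17.8% higher, the shares to set beside the marker counts here and below. Neutrophil markers were lower in fetal liver in 12 of 13 tested cases (median -7.40), led by Ngp, Lcn2, Elane and Cd177 with log2 fold changes from -8.13 to -5.70. Their summed signal ranged from 51284 to 72229 in bone marrow and from 4375 to 6077 in fetal liver. Most of that fetal liver sum came from Mpo (3232, 3482 and 2717), which was called lower. Monocyte markers fell in 8 of 9 cases (median -4.85), among them Ctss, Ms4a6c, Ccr2 and Mpeg1, with sums of 8168 to 10084 and 1710 to 3752. Most of the monocyte sum in fetal liver came from F13a1 (1513, 2483 and 3549), the marker that was not called. Macrophage markers (Vcam1, C1qb, Adgre1, Cd68 and Timd4) fell in 5 of 5 cases (median -2.84; sums 1375 to 1691 and 255 to 266), and the fetal liver geometric mean was below the control level for Vcam1 alone. Mmp8, Mmp9 and Cd177 among neutrophil markers, and Cd14 and Mpeg1 among monocyte markers, had a fetal liver geometric mean below the control level, and none of these 3 lists had a tested marker below it in bone marrow. With no filter, 8 of the 11 listed macrophage markers fell. The part of such cells in the receptor values was not tested.

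Dendritic cell markers fell in 4 of 5 cases (Spib, Flt3, Siglech and Tcf4, the last at 0.022 after median centring) and rose in 1, Zbtb46, which was not called in 5 of the 15 alternatives (median -1.59; sums 4767 to 5518 in bone marrow and 3656 to 4164 in fetal liver). Of 4 tested markers of natural killer cells, the cells whose receptors bind the Clec2d and Clec2i proteins, Nkg7 and Ccl5 fell (sums 5106 to 5268 and 2011 to 2432). Gzma (adjusted p = 0.0568) and Prf1 (log2 fold change 0.30) were not called, but Gzma was called lower under 7 alternatives and Prf1 higher under 2. The natural killer count was 1 without any 1 bone marrow array and 4 with the floor at the control level. With no filter it was 8 of the 10 listed markers (median -3.76). Only 2 dendritic cell markers fell without bone marrow replicate 3, and 6 without fetal liver replicate 1. Basophil and mast cell markers, led by Mcpt8, Fcer1a, Hdc and Ms4a2, fell in 5 of 6 cases (median -3.81; sums 10733 to 11988 and 6245 to 7203) and B lymphoid markers, led by Dntt, Ebf1, Cd79a and Ms4a1, in 6 of 7 (median -5.24; sums 3253 to 4788 and 1290 to 1495). The basophil and mast cell count was 3 without bone marrow replicate 2 or 3, and the median of that list was -0.84 with no filter. Most of the basophil and mast cell sums came from Gata2, which was not called (6691, 6973 and 5991 in fetal liver). Cd79b, also not called, gave most of the B lymphoid sum in fetal liver (1121, 1342 and 1341). Tcf4 gave most of the dendritic cell sums (3599, 3290 and 2979 in fetal liver). Fetal liver geometric means were below the control level for Gzma, Ccl5, Fcer1a, Mcpt8, Ms4a2, Cd79a and Ms4a1. The part of these cells was likewise not tested. Megakaryocyte markers rose in 2 of 10 cases, Tubb1 and Gp9, and fell in none (median 0.38; sums 23461 to 28014 and 20156 to 36152), so the labelled cell type's own markers were present in both tissues. The share of megakaryocyte markers that rose was 20.0%, near the 17.8% of all genes tested. Without fetal liver replicate 1, 6 of these markers rose, with median centring 4 rose, and without fetal liver replicate 2, 1 fell. On bone marrow replicate 1, where 5 receptors were lowest, the median deviation was -0.57 log2 units for neutrophil markers and -0.91 for B lymphoid markers. It was -0.74 for natural killer, -0.57 for basophil and mast cell and -0.14 for dendritic cell markers. Macrophage (0.48), megakaryocyte (0.23) and monocyte markers (0.17) went the other way.

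The tested genes outside the members with the profile most like theirs were Sox6, Kcnc1, Eya1, Scml4 and Cabcoco1. Likeness was the root mean square difference over the 6 arrays between a gene's centred log2 signals and the median centred profile of the 8 receptors, and it was 0.22 log2 units for Sox6 and Kcnc1, 0.25 for Eya1 and 0.27 for Scml4 and Cabcoco1. Sox6, a transcription factor of erythroid and other lineages, had signals of 1222, 1283 and 1468 in bone marrow and 207, 129 and 106 in fetal liver. The other 4 had log2 fold changes between -3.03 and -2.84 on the probe set tested. Further Eya1 probe sets gave a log2 fold change of -0.89 and a signal at least 4.16-fold lower in fetal liver. A further Scml4 probe set was at least 1.40-fold lower. Of 4 probe sets of Kcnc1, 3 were lower in fetal liver (-2.99, -2.63 and -2.14) and 1 gave 0.08.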

How the data were processed

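The values the authors deposited are linear intensity signals of each probe set, and the submitters' processing notes name MAS5, without version or build. Dropping the top and bottom 2% of signals left a mean of 500 on all 6 arrays, and no 2 arrays were identical. Median signal was 65.9 to 74.6 on bone marrow and 52.0 to 59.1 on fetal liver arrays. The number of arrays limits the precision, and an exact permutation test of 3 against 3 cannot go below 0.1, so none was used. The labels call the replicates biological but do not say how many animals each holds, so p-values speak only of the scatter among these arrays.

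Signals were log2-transformed without an offset. Of 45037 probe sets that are not controls, 27022 had a mean log2 signal above the 40th percentile; 932 with several symbols and 9160 with none named no gene. For each of 11645 genes the brightest probe set was tested. limma 3.58.1 (R 4.3.3) fitted tissue with an intensity-trended prior and 4 residual degrees of freedom, with Benjamini-Hochberg adjustment over all genes, and was checked on simulated data. A fold is a bound if the geometric mean of either tissue was under the control level. Bounds came from pandas 2.3.3 and numpy 2.4.6 under Python 3.11.15, and plots from matplotlib 3.10.9.

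The members and lists were chosen with earlier results of these data known. Named genes were all members, the 4 tested genes of lowest adjusted p in each list (all in a list with fewer than 6 tested), the key adaptors and the 5 genes most like the members. Replicate numbers are shared between the tissues, but same-numbered arrays did not deviate together (r = -0.08, 0.07 and -0.11 across genes), so no pairing was used. Alternatives were median centring or quantile normalization of the arrays, no filter or a stricter one (60th percentile), an added offset of 7.53 (the 25th percentile), a floor at the control level, averaging the probe sets of a gene or testing each alone, the replicate block and leaving out each array.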

Additional observations from a re-analysis of the deposited data

How the results depend on the processing

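Over all genes 4208 were called, 2074 higher and 2134 lower in fetal liver. Median centring gave 6726, 5377 higher and 1349 lower, and took the all-gene median from 0.04 to 0.38 log2 units, which leaves the sign of smaller differences unsettled. Testing each probe set on its own gave 7237 calls, over 27022 probe sets. With each array left out in turn the count of calls ran from 2813 to 4477.

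The stricter filter, which leaves fewer genes tested, gave 5 lower calls among the other lectin-domain receptors, 1 among adaptors and signalling genes, 6 among receptor-induced genes and 4 among neighbours. Among markers it gave 9 neutrophil, 3 monocyte, 1 macrophage, 1 dendritic (list median 0.38), 1 natural killer, 2 basophil and mast cell and 1 B lymphoid (list median -1.08) lower calls. Averaging the probe sets of a gene gave 5 lower among adaptors and signalling genes; the cause was not tested. The median over the 8 receptors was -2.29 with the offset and -2.28 with the floor, both of which raise low signals by construction. With each array left out, lower calls ran from 8 to 13 for other lectin-domain receptors, from 2 to 3 for adaptors, from 6 to 11 for receptor-induced genes, from 6 to 8 for transcription factors and from 6 to 12 for neighbours, and the receptor median from -3.65 to -2.96.

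With the replicate block 3847 genes were called, and the numbers of lower calls in these lists stayed at 11, 2, 10, 7 and 10. Tcf4, a dendritic cell marker, reversed under median centring (0.022 against -0.32). Kcnc1 ran from -3.26 to 0.27 with each array left out and reversed without bone marrow replicate 1 (0.27) or 3 (0.093), where another of its probe sets became the brightest. Of 63 named genes outside the members, 50 were called under every alternative that tested them 7 lost a call under at least 1, and 6 that were not called (Fcer1g, Syk, Gzma, Prf1, Itgb3 and Vwf) gained one. Signals near the control level limit the size of every bound.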
